A study of Mus musculus with 4 samples.

Results

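Between the genes that code for proteins lie stretches of DNA with none, and some of these carried H3K27me3 in all 4 libraries of germinal center B cells. The regions described here were found by pooling the peaks of the 4 deposited lists on chromosomes 1 to 19 and merging peaks that overlapped or touched. A merged region was kept if each list had a peak on it (1 bp was enough), if it was shorter than 20 kb, and if it lay at least 50 kb from the body of every protein-coding gene. This left 2501 regions of 116146 merged regions. They are called far shared regions below. They were selected on measured values, the presence of a peak in each list and the merged length, so their presence in all 4 lists is no result. The other 23219 regions under 20 kb in all 4 lists, nearer to genes, served for comparison, and 12953 of those touched a gene body.

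H3K27me3 is the trimethyl mark on lysine 27 of histone H3, written by Polycomb repressive complex 2 and found over genes that a cell keeps silent. It can spread in broad domains around regulatory DNA as well as over promoters. Kdm6b, also called JMJD3, is a demethylase that removes the mark. Germinal center B cells are activated B cells that mutate their antibody genes in lymphoid follicles.

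The libraries were CUT&Tag, in which a transposase tethered by an antibody cuts the DNA beside the mark. The mice were C57BL/6, of wild type (WT, 2 libraries) or lacking Kdm6b in B cells (KO, 2 libraries). Germinal center B cells were sorted from the spleen, and the series calls them pre-plasma. Both genotypes had been immunised with sheep erythrocytes, with a second dose on day 5 and harvest on day 12. The sources used here do not give the driver of the knockout, the part of Kdm6b deleted, or the age and sex of the mice. The lists held 79756 and 89274 peaks in KO replicates 1 and 2 and 86471 and 81484 in WT replicates 1 and 2, covering 143 and 234 Mb against 211 and 101 Mb. So the covered length differed more within a genotype than between the 2, and read depth was unknown. Gene bodies were used to check the cell type. None of 11 germinal center B cell markers, Pax5, Bcl6 and Ebf1 among them, had 25% or more of its body covered in any library, while 5 or 6 of 6 T cell markers and 2 of 5 plasma cell markers (Prdm1 and Sdc1) did in every library. So did 3 to 5 of 5 myeloid, 2 or 3 of 3 erythroid and 1 of 3 NK cell markers, and the NK markers Ncr1 and Klrb1c had 0% covered in all 4, so an uncovered body was not limited to B cell genes.

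The word shared holds for the merged region and less often for its bases. A median of 21.7% of a region's length was covered in all 4 lists at once, and 389 of the 2501 had no base covered in all 4. The points of highest signal of the 4 libraries lay within 500 bp of each other at 449 regions (17.95%), against 19.6% of the nearer regions. The regions had a median length of 4059 bp (quartiles 2560 and 6300 bp) and 12.5 Mb in all. Far from genes means far from protein-coding genes: 825 regions (33.0%) overlapped a non-coding gene, and 308 (12.3%) lay at least 50 kb from a gene of any kind.

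Copies of 3 microRNA families, best known from neurons and from blood progenitors, lay in these regions, and mature sequences are shown because different loci give the same product. The families were chosen after their values were seen. The mature sequences are from RefSeq (GRCm38.p6), with the seed, bases 2 to 8, in capitals. The seed is the part that pairs with target messages.
miR-9-5p: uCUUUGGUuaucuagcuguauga
miR-9-3p: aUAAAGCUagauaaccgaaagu
miR-125b-5p: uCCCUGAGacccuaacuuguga
By that table miR-9-5p comes from Mir9-1, Mir9-2 and Mir9-3, and miR-125b-5p from Mir125b-1 and Mir125b-2. Of 156 microRNA genes at least 50 kb from coding genes, 12 (7.69%) lay in far shared regions, in 9 regions. Of all 1136 microRNA genes, near or far, 188 lay in a region in all 4 lists. The hairpins of 7 of the 12 were covered in full in all 4 libraries. These 7 are not separate loci: Gm51268 overlaps Mir9-2, Gm51272 overlaps Mir124a-2, and Mir3078 shares the Mir124a-1 region. The other 5 (Mir6380, Gm51276, Mir467h, Mir6408 and Mir7216) had 0% covered in at least 1 library.

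Mir9-2 makes miR-9, a microRNA of neural development. Its hairpin, chr13:83738814-83738885 (mm10), was covered over 100% of its length in all 4 libraries. It lay 71.7 kb from Mef2c, in a region of 5985 bp between Mef2c and Tmem161b. Peaks covered 100% and 88.8% of this region in KO replicates 1 and 2 and 84.4% and 72.6% in WT replicates 1 and 2. The region's highest signal stood at the 94.6th percentile of its list or above in each library. Mir9-1 and Mir9-3 also had fully covered hairpins in all 4 libraries, at 27.2 kb from Rhbg and 37.4 kb from Polg. Their regions, of 43849 and 79010 bp, were not far shared regions. Both were nearer to genes than 50 kb and longer than 20 kb.

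Mir124a-1 and Mir124a-2 encode miR-124, another microRNA abundant in neurons. Both hairpins were covered over 100% in all 4 libraries. The Mir124a-1 hairpin lay 61.8 kb from Kif13b. Its region, 17723 bp long, was covered over 88.1% and 98.1% in KO and 96.4% and 64.0% in WT, and it also held Mir3078. The Mir124a-2 hairpin lay 153 kb from Cypt12. Its region, 4638 bp long, was covered over 86.8% and 71.1% in KO and 84.3% and 54.5% in WT. WT replicate 2 was the lowest library at each of these.

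Mir125b-1 encodes miR-125b, which is active in blood stem and progenitor cells. Its hairpin, chr9:41581926-41582002, lay 324 kb from the nearest coding gene and was covered in full in all 4 libraries. The hairpin of Mir125b-2, 529 kb from Usp25, was covered over 0% in all 4. The 2 loci give the same mature miR-125b-5p. The Mir125b-1 region was covered over 62.8% and 96.3% in KO and 95.6% and 62.4% in WT. At the Mir9-2 region both KO shares lay above both WT shares, and at the other 3 microRNA regions the genotypes overlapped.

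The far shared regions came in groups. Coding genes on these chromosomes left 2495 intervals longer than 100 kb between neighbours, and 591 of them (23.7%) held a far shared region. The 63 intervals with 10 or more, a limit set after the counts were seen, held 1017 regions (40.7%) in 3.29% of the far space, the bases at least 50 kb from coding genes. The other side is as uneven: intervals with none made up 79.2% of the far space, and 186 of the 225 intervals with over 1 Mb of it were empty. The longest empty interval, between the protocadherin genes Pcdh20 and Pcdh9, had 4.44 Mb of far space with 0% covered in every library. A neighbouring far shared region lay within 20 kb of 1988 regions (79.5%), and the median gap to the nearest was 2562 bp. Only peaks that overlapped or touched were merged, so a single marked stretch with short gaps counts as several regions. With gaps of up to 1000 bp bridged, 1658 regions met the rule. The counts per interval and per Mb given here are of regions without such bridging.

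**Figure D1:**
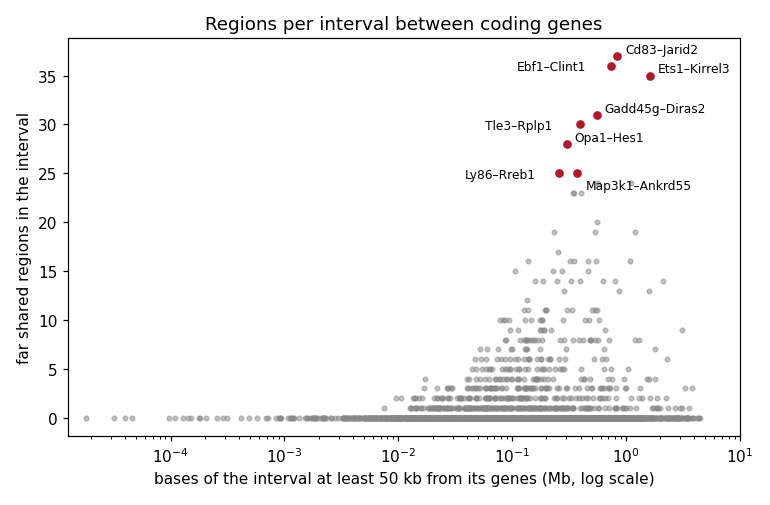
Each point is 1 of the 2495 intervals between neighbouring protein-coding genes, by its bases at least 50 kb from both genes (x axis, Mb, log scale) and its number of far shared regions (y axis). The 8 intervals with most regions are red and named, and hold 25 to 37 each.

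The interval with most regions lay between Cd83, a surface protein of activated B cells and dendritic cells, and Jarid2, a partner of Polycomb repressive complex 2. It held 37 regions on chromosome 13, and peaks covered 21.8% and 43.8% of its far space in KO and 30.1% and 11.2% in WT. The bodies of Cd83 and Jarid2 were covered over less than 1% in every library. So a well covered stretch lay beside a pair of nearly uncovered genes. The next intervals were Ebf1–Clint1 with 36, Ets1–Kirrel3 with 35 and Gadd45g–Diras2 with 31. Ets1 is a transcription factor of lymphocytes and Gadd45g a stress response gene. Tle3–Rplp1 held 30, Opa1–Hes1 28, and Ly86–Rreb1 and Map3k1–Ankrd55 25 each. Hes1, a target of Notch signalling, differed from Cd83: its own body was covered over 76.3% and 91.6% in KO and 100% and 48.9% in WT. Gadd45g was covered over 100% in both KO libraries and 48.4% and 48.0% in WT.

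Ebf1 encodes a factor that commits cells to the B lineage, and Clint1 a clathrin adaptor. Both gene bodies had 0% covered in all 4 libraries. The 36 regions between them lay 59.6 to 790 kb from Ebf1 and were 1164 to 17555 bp long. Their mean covered share was 56.6% and 83.1% in KO and 69.5% and 40.2% in WT, so KO replicate 2 was highest and WT replicate 2 lowest. The region of highest mean rank, chr11:45516700-45526977, 509 kb from Ebf1, was covered over 79.2% and 91.6% in KO and 54.3% and 18.6% in WT.

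**Figure D2:**
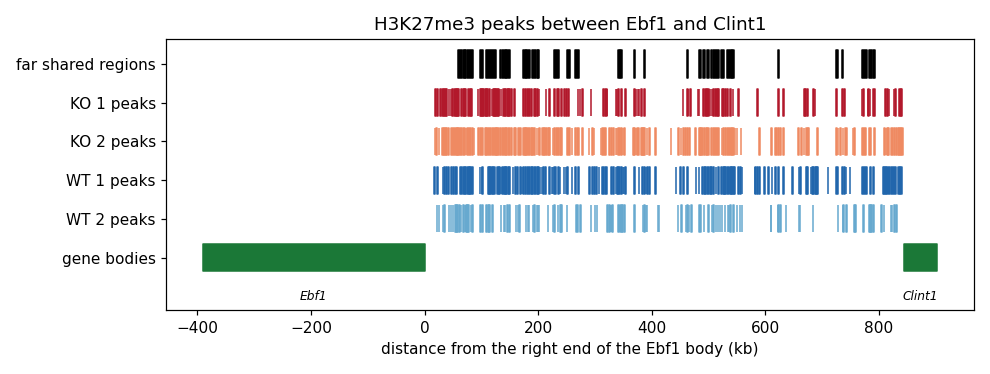
Peaks of each library (coloured rows), the 36 far shared regions (black) and the bodies of Ebf1 and Clint1 (green), by distance from the right end of the Ebf1 body (x axis, kb). Peaks of all 4 libraries lie between the genes and none lies on either gene body.

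Intervals were sorted by the role of their flanking genes, with lists written with earlier results of these data known, and the values that follow are a description without a test. Over all intervals there were 2.87 far shared regions per Mb of far space. Beside germinal center and B cell genes there were 19.05 per Mb, and 13 of 16 intervals held at least 1. The Ebf1–Clint1 interval alone gave 36 of these 94 regions, and without it 12 of 15 intervals held regions, at 13.8 per Mb. Irf8–Foxf1 held 15. Irf8 is a factor of B cell and myeloid development, and its other neighbour Foxf1 is a developmental gene. Foxo1–Cog6 held 11 and Cxcr4–Thsd7b 10, where Foxo1 and Cxcr4 are known for the dark zone of the germinal center. The 11 regions between Foxo1 and Cog6 lay 452 to 550 kb from Foxo1, and another 4 on its other side, between Maml3 and Foxo1, lay 54.6 to 85.8 kb from it. The interval from Bcl6, the main repressor of the germinal center program, to Lpp held none, with 0.232% to 1.39% of its far space covered.

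The flanking B cell genes themselves were little covered, and so were coding genes as a whole. Peaks covered 6.36% and 10.4% of all coding gene bodies in KO and 9.42% and 4.64% in WT. Of the 13 flanking B cell genes, the bodies of Bcl6, Ebf1 and Rgs13 were covered over 0% in all 4 libraries. Irf8 was covered over 18.9% and Cxcr4 over 22.8% in KO replicate 2 and over 0% in the other 3. Lmo2, a factor of blood progenitors, was covered in each library, over 7.0% and 22.7% in KO and 4.22% and 1.84% in WT.

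The other lists spanned a wide range. Plasma cell genes had 10.7 regions per Mb in 6 intervals, of which 3 held any, led by Prdm1–Prep with 10. Prdm1 encodes the factor Blimp-1 that drives plasma cell fate. Genes of T, NK, myeloid and erythroid cells had 6.73 per Mb in 10 intervals. By covered share of the far space the order was different: 9.39% and 13.7% in KO and 11.7% and 6.92% in WT beside these genes, against 10.3%, 17.7%, 14.7% and 7.48% beside germinal center and B cell genes and 6.30%, 10.3%, 8.68% and 3.24% beside plasma cell genes, in the same library order. So the list of other blood cells lay near the B cell list and above the plasma cell list in all 4 libraries by coverage. This order leans on the Cebpb–Ptpn1 interval, with 0.140 Mb of the list's 2.68 Mb of far space and 1 far shared region. Its far space was covered over 87.8% and 97.5% in KO and 90.7% and 73.5% in WT. The order without this interval was not tested. Developmental transcription factors, which Polycomb marks in most cell types, had 2.95 per Mb, near the value over all intervals, although Nek7–Lhx9 held 15 and Lhx1–Mrm1 14. Another 3 lists lay lower: signalling ligands and receptors of development had 0.808 per Mb, neurotransmitter receptors and ion channels 0.627, and neuronal adhesion, guidance and synapse genes 0.394. The neuronal adhesion intervals were also longest, with a median of 0.820 Mb of far space against 0.129 Mb over all intervals.

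**Figure D3:**
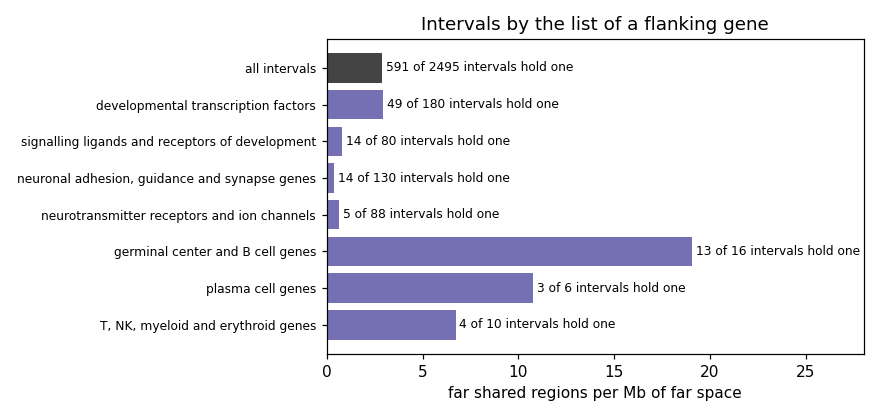
Far shared regions per Mb of far space (x axis) in intervals flanked by a gene of each list, with the number of intervals that hold a region. Bars run from 0.394 for neuronal adhesion genes to 19.05 for germinal center and B cell genes, and 2.87 over all intervals.

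The chromosomes differed as well. Chromosome 13 had 6.20 regions per Mb of far space and chromosome 9 had 5.84, against 1.44 on chromosome 7. Of the 813 coding genes nearest to a far shared region, 428 (52.6%) were touched by a peak in all 4 libraries, against 34.2% of genes beside empty intervals and 35.8% of all 20661 coding genes. Gene length was not taken into account.

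Long non-coding RNA genes made up most of the non-coding overlaps, with 453 genes and 734 regions. The named genes that follow were chosen after their values were seen. Morrbid, a long non-coding RNA that restrains its neighbour Bcl2l11 (the cell death gene Bim) in myeloid cells, held 9 regions. Their mean covered share was 62.9% and 95.5% in KO and 63.7% and 36.8% in WT. Zmiz1os1 held 6, Banf2os 4 and Junos, beside Jun, 3.

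Antigen receptor loci, whose V, D and J segments are not annotated as protein-coding genes, also held far shared regions. The alpha locus of the T cell receptor (Tcra) held 13, 11 of them within the delta locus inside it. The kappa light chain locus (Igk) held 9 and the heavy chain locus (Igh) 3. The Tcrb, Tcrg and Igl loci held 0. Of the merged regions in a locus, 9 of 195 in Igk, 3 of 40 in Igh and 15 of 58 in Tcra were in all 4 lists. Among all merged regions far from genes 16.4% were. Locus length was not taken into account, so these counts do not show that the loci held more far shared regions than other far space. The Tcra regions were covered on average over 40.4% and 76.1% in KO and 69.1% and 29.6% in WT, and those of Igk over 67.1% and 74.7% in KO and 73.8% and 48.1% in WT. Of the 2501 far shared regions, the one farthest from any coding gene lay in Igk, at chr6:68934488-68936314 and 1399 kb away.

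Promoter windows of non-coding genes give the sequence at some of these regions. RefSeq windows of 250 bases before to 50 after a gene's start lay wholly inside far shared regions for 230 starts of 184 genes, and 47 were covered in full in all 4 libraries. Of the 230, 33 (14.3%) held 10 or more CG dinucleotides, against 5.66% of 2951 non-coding windows as far from coding genes but outside regions in all 4 lists, 19.2% of all non-coding windows and 57.9% of all coding windows. The limit of 10 was set after the counts were seen. CG reads the same on both strands, and CG-dense DNA is a known site of Polycomb recruitment. The 3 windows covered in full in all 4 libraries that hold the most CG are shown 5′ to 3′ on the gene's strand, with CG in capitals. They are 9530059O14Rik (chr9:122572251-122572550, plus strand, 38 CG), D130051D11Rik (chr15:85634346-85634645, plus strand, 23 CG) and Gm13652 (chr2:75137926-75138225, minus strand, 23 CG, 1 of 4 starts of this gene in the region).
9530059O14Rik: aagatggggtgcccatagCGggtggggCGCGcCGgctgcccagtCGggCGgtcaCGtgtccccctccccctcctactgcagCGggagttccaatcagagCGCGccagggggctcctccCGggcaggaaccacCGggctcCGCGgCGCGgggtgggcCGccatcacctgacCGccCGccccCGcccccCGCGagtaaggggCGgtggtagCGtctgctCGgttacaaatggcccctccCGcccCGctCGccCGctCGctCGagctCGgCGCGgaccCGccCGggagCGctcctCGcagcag
D130051D11Rik: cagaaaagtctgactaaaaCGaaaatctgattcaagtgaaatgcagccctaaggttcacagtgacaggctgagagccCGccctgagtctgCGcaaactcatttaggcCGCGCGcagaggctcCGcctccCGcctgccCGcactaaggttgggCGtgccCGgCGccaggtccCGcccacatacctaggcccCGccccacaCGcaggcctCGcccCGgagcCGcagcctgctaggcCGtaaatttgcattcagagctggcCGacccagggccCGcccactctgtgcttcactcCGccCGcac
Gm13652: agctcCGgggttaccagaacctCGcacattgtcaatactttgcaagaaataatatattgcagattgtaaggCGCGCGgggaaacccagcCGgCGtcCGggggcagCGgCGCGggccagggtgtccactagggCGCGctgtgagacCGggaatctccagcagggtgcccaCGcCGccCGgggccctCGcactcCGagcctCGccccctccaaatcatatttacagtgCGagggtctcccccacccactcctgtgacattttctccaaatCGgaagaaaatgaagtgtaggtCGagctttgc
The region around the 9530059O14Rik start, 10093 bp between Abhd5 and Topaz1, was covered over 84.1% and 98.0% in KO and 100% and 78.8% in WT. The D130051D11Rik region, between Wnt7b and Ppara, was covered over 90.1% and 76.9% in KO and 46.8% and 42.5% in WT, which did not overlap. The Gm13652 region, beside Mtx2, was covered over 69.8% and 92.3% in KO and 60.5% and 24.8% in WT. The windows were picked for full cover, and the share of the surrounding region varied between libraries.

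A small set of far shared regions had very high signal. At 15 regions (0.60%) the highest signal was at least 5 times the median peak of its list in all 4 libraries, against 13 of the nearer regions (0.0560%). The limit was set after the values were seen. The highest, chr2:98666230-98667345 between Lrrc4c and Iftap, reached 444 and 1147 times the list median in KO and 371 and 402 times in WT. Another 2 regions lay close beside it, at 41.4 to 125.3 times. The region at chr17:39842978-39848846 overlapped Rn18s-rs5, annotated as a pseudogene, and the one at chr8:123598771-123601798 overlapped the ribosomal RNA gene n-R5s136 and the pseudogene Rn5s-ps1. Ribosomal RNA genes occur in many copies, and the sources used here do not say how reads from repeated DNA were placed. Whether the signal at any of the 15 regions, the highest included, came from repeated DNA rather than from H3K27me3 was not tested. The median length of the 15 was 1116 bp.

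**Figure D4:**
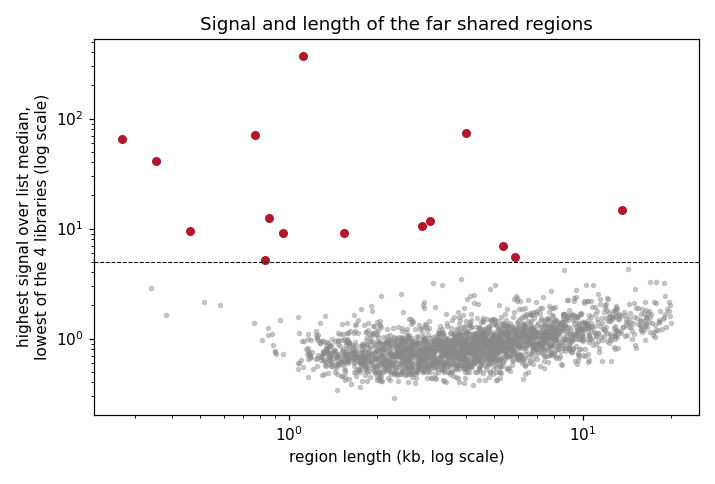
Each point is 1 of the 2501 far shared regions, by its length (x axis, kb, log scale) and its highest signal over the list median in the library where that ratio is lowest (y axis, log scale). The 15 red points lie above the dashed line at 5, and the highest is at 371.

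The longest regions lay just under the 20 kb limit. They were 19961 bp between Prok2 and Rybp, which encodes a Polycomb subunit, and 19772 bp between Nkx1-1 and Fam53a, and the shortest regions left out were 20018 bp between Sox1 and Spaca7 and 20346 bp between Ttc8 and Foxn3. The Prok2–Rybp region was covered over 81.0% and 89.9% in KO and 87.2% and 53.7% in WT, and the Sox1–Spaca7 region over 91.1% and 96.3% in KO and 97.3% and 73.3% in WT. In all, 52 shared regions far from genes were 20 kb or longer. At the distance limit, the closest member past 50 kb lay between Gm5458 and Nid2 and was covered over 31.1% and 93.8% in KO and 43.2% and 11.9% in WT. The next, between Tmem170b and Adtrp, was covered over 64.2% and 75.1% in KO and 61.4% and 74.3% in WT, and the third, between Lhx1 and Mrm1, over 24.4% and 91.9% in KO and 93.9% and 25.3% in WT. Just nearer than 50 kb, a region between Map3k7 and Bach2 was covered over 68.7% and 100% in KO and 88.7% and 51.7% in WT. One between Zfp217 and Bcas1 was covered over 61.2% and 100% in KO and 74.7% and 22.3% in WT, and one between Fut8 and Gm6657 over 44.1% and 94.2% in KO and 100% and 36.3% in WT.

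Far from genes, peaks covered less of the genome. Of the 863.5 Mb of far space, peaks covered 1.60% and 2.83% in KO and 2.50% and 1.08% in WT. The other space was covered over 8.22% and 13.4% in KO and 12.1% and 5.83% in WT. The difference had the same sign in 4 of 4 libraries (mean -7.87 percentage points ± 2.66, SD, n = 4 libraries, exact two-sided sign-flip permutation p = 0.13, the smallest this design allows). Of the 15602 merged regions far from genes, 16.4% were in all 4 lists, against 24.1% of the others.

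The far shared regions ranked lower in signal than the nearer ones. Their median percentile within the list was 62.4 and 70.4 in KO and 67.1 and 59.9 in WT, against 70.7, 78.5, 76.3 and 67.1 in the same order (mean difference -8.19 ± 0.785, SD, n = 4 libraries, exact sign-flip permutation p = 0.13). The rank is that of the highest peak anywhere in a region, and the nearer regions were longer (median 4540 bp against 4059 bp). Against only those nearer regions that touched no gene body (median 4026 bp) the mean difference was -2.16 (exact permutation p = 0.25), with no difference in WT replicate 2. The part of region length in these differences was not tested. Among far shared regions, the median rank was 61.4, 70.4, 67.1 and 59.9 at 50 to 75 kb and 56.9, 67.5, 62.3 and 55.9 at 200 to 500 kb.

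The covered share followed the library more than the genotype. Peaks covered on average 56.9% and 82.3% of a far shared region in KO replicates 1 and 2, and 76.2% and 40.6% in WT replicates 1 and 2. KO replicate 2 had the highest share at 1378 regions and WT replicate 2 the lowest at 1752, ties counted. The means were 69.6% ± 17.98 (SD, n = 2) in KO and 58.4% ± 25.2 (SD, n = 2) in WT, a difference of 11.2 percentage points within the spread of the libraries (exact two-sided permutation p = 0.667, where 0.33 is the smallest this design allows). The nearer regions differed by 10.6 points (permutation p = 0.667). Each list was then cut to the same covered length by keeping its peaks of highest signal. This kept 42876 and 16510 peaks in KO replicates 1 and 2 and 21107 in WT replicate 1. The list of WT replicate 2, the shortest, kept all 81484, so the strongest peaks of the other lists were set against a whole list. With these cut lists the far shared regions gave the other sign, -3.39 points (permutation p = 0.667).

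**Figure D5:**
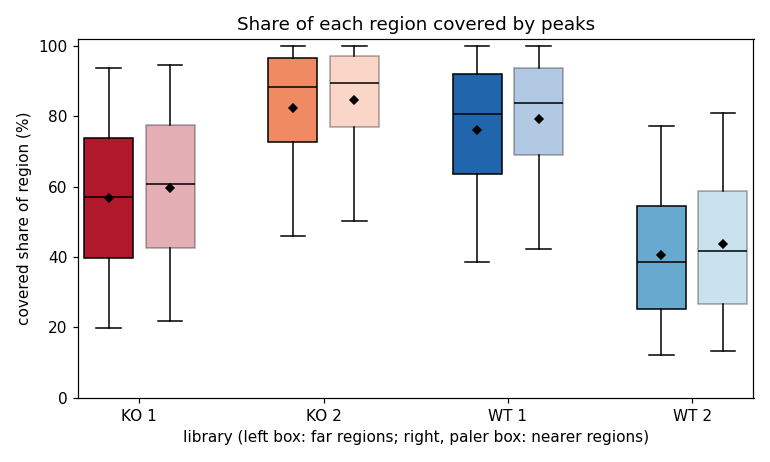
Covered share of a region (y axis, %) in each library for the 2501 far shared regions (left boxes) and the 23219 nearer regions (right, paler boxes). Boxes show quartiles and median, whiskers the 5th and 95th percentiles and diamonds the mean, which for far shared regions is 82.3% in KO replicate 2 and 40.6% in WT replicate 2.

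Both KO shares lay above both WT shares at 428 far shared regions (17.1%) and below at 81 (3.24%). Over all merged regions these percentages were 9.41 and 2.97, and over the 26744 regions in all 4 lists, where no library is at 0, 15.3 and 2.45. At equal covered length the counts were 236 (9.44%) and 209 (8.36%), against 3.15% and 2.57% over all merged regions, and 11.4% and 8.75% over those in all 4 lists. At equal covered length the 2 directions were closer in number, and the far shared regions had shares close to those of all regions in all 4 lists.

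The regions with the largest differences show how far this went. Between Plekhb2 and Hs6st1, chr1:35840972-35847049 was covered over 66.8% and 96.0% in KO and 13.6% and 17.9% in WT. The difference was 65.7 percentage points (SE 44.7, limma adjusted p = 0.528). Between Rpl34 and Lef1, a transcription factor of Wnt signalling, chr3:130890881-130895487 was covered over 96.6% and 90.3% in KO and 61.4% and 8.92% in WT. The other way, chr17:79964433-79966457 between Atl2 and Hnrnpll was covered over 49.4% and 40.2% in KO and 96.0% and 92.4% in WT, a difference of -49.4 points (SE 44.7, limma adjusted p = 0.538). The groups do not overlap at these regions because they were picked for that. The lists trimmed to equal covered length gave other values there. At the Plekhb2–Hs6st1 region they covered 0% in both KO and 13.6% and 17.9% in WT, so the direction turned. At the Rpl34–Lef1 region they covered 63.9% and 90.3% in KO and 0% and 8.92% in WT, which still did not overlap. At the Atl2–Hnrnpll region they covered 49.4% and 0% in KO and 0% and 92.4% in WT, which overlapped.

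No far shared region was called by limma at an adjusted p of 0.05 (0 higher and 0 lower in KO; 0% of all 116146 merged regions in each direction), and none had an unadjusted p below 0.05 either (0 and 0), against 0.616% and 0.186% of all merged regions. This fit could not have called one. It gave every region the same SE, 44.7 points, so that even a change from 0% in both WT to 100% in both KO would have had an unadjusted p of 0.0253. The counts of 0 therefore do not show that the genotypes are alike. Far shared regions were also selected to have cover in every list. Over all merged regions the median covered share was 0% in KO replicate 1 and in WT replicate 2. A difference large enough for a low unadjusted p was thus harder to reach in far shared regions, and the 2 sets are not alike in this respect. At equal covered length limma called 2 far shared regions (0.0800%), both lower in KO, against 0.0138% (higher) and 0.0293% (lower) of all merged regions. At chr2:72681987-72683592 between Cdca7 and Sp3, the trimmed lists covered 0% in both KO and 68.2% and 69.3% in WT (SE 0.495, limma adjusted p = 0.0376). At chr12:15641497-15644085 between Lratd1 and Trib2 they covered 0% in both KO and 21.6% and 21.9% in WT (SE 0.169, limma adjusted p = 0.0422). These SEs were small because both KO values were 0% after trimming and the WT values lay close together. In the full lists KO replicate 2 covered 97.6% and 97.0% of these regions, more than either WT library, and neither was called there. In the trimmed lists the unadjusted p was below 0.05 at 49 of the 2501 far shared regions higher in KO and at 51 lower. Of all 116146 merged regions it was so at 772 (0.665%) and 886 (0.763%).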

How the data were processed

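H3K27me3 CUT&Tag peak lists of 2 KO and 2 WT libraries were used, 1 list per library. The authors deposited the total and highest signal of each peak as signal (coverage) values, and the sources used here do not give its scale, the read depth or the settings of the peak caller. Per the submitters' processing notes, the build was mm10 and the tools were SEACR, deepTools, Bowtie2 2.4.2, Trim Galore 0.6.6 and SAMtools 1.11. From these lists, merged regions, covered shares, ranks of the highest signal within a list and distances to RefSeq genes (GRCm38.p6) were computed in Python 3.11.15 with numpy 2.4.6 and pandas 2.3.3. Signal was ranked within lists only. Covered shares of all merged regions were compared with limma 3.58.1 in R 4.3.3 (lmFit and eBayes, Benjamini-Hochberg, 0.05), and single values by exact permutation over the libraries. On simulated data with the spread of the real fit, limma recovered 0% of changes of 80 points. Replicate numbers were given in accession order. The permutation p-values measure the spread between these libraries only. In the main limma fit the SE was pooled over all merged regions, so its p-values do not measure the spread of a single region between libraries. The members, gene lists and tests were chosen with earlier results of these data known. Named regions were the longest, highest-ranked, farthest, most different by genotype, those with most non-coding cover and those at the limits of length and distance, plus the 8 fullest intervals; values picked otherwise are marked. Equal covered length, a stricter threshold, other distances, merging rules and each library left out were tried. No genome was used here, so no sequence of the regions themselves is shown.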

Additional observations from a re-analysis of the deposited data

Results flagged for a closer look

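The X chromosome was outside the rule. On it, 16 of 248 regions present in all 4 lists met the other limits, under 20 kb and at least 50 kb from protein-coding genes, and they were not used in any comparison. There are no control samples without the antibody among the files used here. Of the 16, 8 lay on the sides of Bcor, a partner of Bcl6 in germinal center B cells: 6 between H2al1j and Bcor and 2 between Bcor and Atp6ap2. The longest of these, 10893 bp between H2al1j and Bcor, was covered over 79.3% and 100% in KO and 79.9% and 33.7% in WT. Groups of 2 libraries are too small to look for a library that stands apart.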

How the results depend on the processing

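No paired analysis was possible because the replicate numbers were given in accession order and the labels tie no KO library to a WT library. The number of far shared regions was 2501 and became 4768 with a distance of 25 kb, 1075 with 100 kb, 505 when each list had to cover 50% of a region, 1541 with the stricter threshold and 1658 when peaks were also merged across gaps of 1000 bp; leaving out 1 library gave 2847 to 3750. At equal covered length 549 were found. The mean covered share, KO minus WT, was 11.2 points and turned to -3.39 at equal covered length; without 1 library it ran from -6.57 to 29.0, at -1.49 without KO replicate 2 and -6.57 without WT replicate 2. The covered share of the far space, KO minus WT, was 0.43 points, turned to -0.044 at equal covered length and ran from -0.28 to 1.14 without 1 library, at -0.19 without KO replicate 2 and -0.28 without WT replicate 2. The cause was not tested.

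Regions with KO above WT numbered 428, and 236 at equal covered length, and 476 to 1825 without 1 library (19.03% to 72.97%, against 17.0% to 75.6% of the regions in all 4 lists); those with KO below WT numbered 81, and 209 at equal covered length, 300 by rank of the highest signal (12.0%, against 12.8%) and 113 to 880 without 1 library (4.52% to 35.2%, against 3.56% to 35.8%). The limma calls were 0 and 0, with 0 higher and 2 lower at equal covered length, and without 1 library 0 to 22 higher and 0 to 3 lower: 22 higher without KO replicate 1 (0.880%, against 18.7% of all merged regions), 2 higher without WT replicate 1 (0.0800%, against 0.281%) and 3 lower without WT replicate 2 (0.120%, against 13.3%). Those fits leave 1 library in a genotype, assumed to vary like the other. With trend, with covered length as a covariate and on regions in all 4 lists only, the calls were 0 and 0. The density beside germinal center and B cell genes was 19.05 per Mb, 11.3 with the stricter threshold and 4.86 at equal covered length, beside 1.76 and 0.618 over all intervals; without 1 library it was 20.7 to 24.7. These 2 alternatives, the density without 1 library, the count of regions with a base in all 4 lists and the results without the high-signal regions were added after seeing the data. The lower rank of far shared regions kept its sign in all 7 alternatives run, from -8.76 to -2.16.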
